A study of Mus musculus with 6 samples.

Results

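The transcripts examined were those of 10 genes named for feedback on the ERK pathway, in cardiac fibroblasts treated with TGF-β with and without Cre-mediated deletion of Tet3. They are the phosphatase genes Dusp1, Dusp4, Dusp5 and Dusp6, the Sprouty genes Spry1, Spry2 and Spry4, the related genes Spred1 and Spred2, and the adaptor gene Garem2. Each was taken by its symbol from a table of 22063 genes, and all 10 were among the 12862 genes with enough reads to be tested. The genes were chosen by name when their differences between the groups of these same libraries were already known. The differences are therefore a description of the members. No p-value of a member is given, and where a member is said to pass or miss the threshold used for all genes, that too is description.

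Primary fibroblasts were isolated from the hearts of mice with floxed Tet3 alleles on a C57BL/6J background. They were transduced in culture with an adenovirus coding for GFP, the libraries labelled Control (GFP, n = 3), or with one coding for Cre recombinase, the libraries labelled Tet3 knockout (CRE, n = 3). Cre recombinase removes DNA flanked by loxP sites. The enzyme TET3 oxidises methylated cytosine, a step towards its removal from DNA. Cells of both groups carried the floxed alleles, received a virus and were treated with TGF-β, a cytokine under which fibroblasts become myofibroblasts that contract and secrete matrix. Cells without TGF-β or without virus were not analysed here, and how many cells took up the virus is not given. The study calls its replicates biological, and the labels do not say whether they came from separate mice or cultures, so a p-value measures the spread between these libraries only.

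ERK is the last kinase of a cascade in which receptor tyrosine kinases, through adaptors and RAS, activate RAF, then MEK, then ERK. Active ERK raises transcription of genes whose products restrain the same cascade. The dual-specificity phosphatases (DUSPs) of the MAP kinase phosphatase class remove phosphate from ERK and its relatives JNK and p38, while Sprouty and SPRED proteins act upstream, between the receptor and RAF. Transcript levels of these genes are often read as a record of ERK activity, which itself was not measured here.

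Gene counts summed to between 17002126 and 20343590 per library. Raw Tet3 counts stood at 1044, 965 and 1000 in GFP and at 642, 649 and 637 in CRE replicates 1 to 3. The groups did not overlap, and Tet3 fell to 60.8% of its GFP level (log2 fold change -0.72, SE 0.08, edgeR quasi-likelihood adjusted p = 5.36e-05). The count covers the whole gene and does not separate the floxed exons from the rest. In bulk RNA, fewer cells of a type and less RNA per cell cannot be told apart.

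The 4 DUSP genes were all higher in CRE libraries, 2 of the 3 Sprouty genes and Garem2 were lower, and the third Sprouty gene, Spry4, differed by less than its spread. Spred1 was slightly higher and Spred2 slightly lower. At an adjusted p under 0.05, 5 members were higher and 4 lower, beside 25.5% of all tested genes called higher and 25.7% called lower, or 51.2% in either direction. In CPM, the groups did not overlap in 9 of the 10 members and in 59.6% of all tested genes. At the study's own threshold, which asks for a fold of more than 1.5 or less than 0.66 at an unadjusted p below 0.05, 3 members were higher and 3 lower, beside 7.52% and 10.3% of all tested genes. Nothing is read from these counts, because the same contrast was known when the members were chosen. The median of the absolute log2 fold change was 0.78 over the members and 0.25 over all tested genes.

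**Figure D1:**
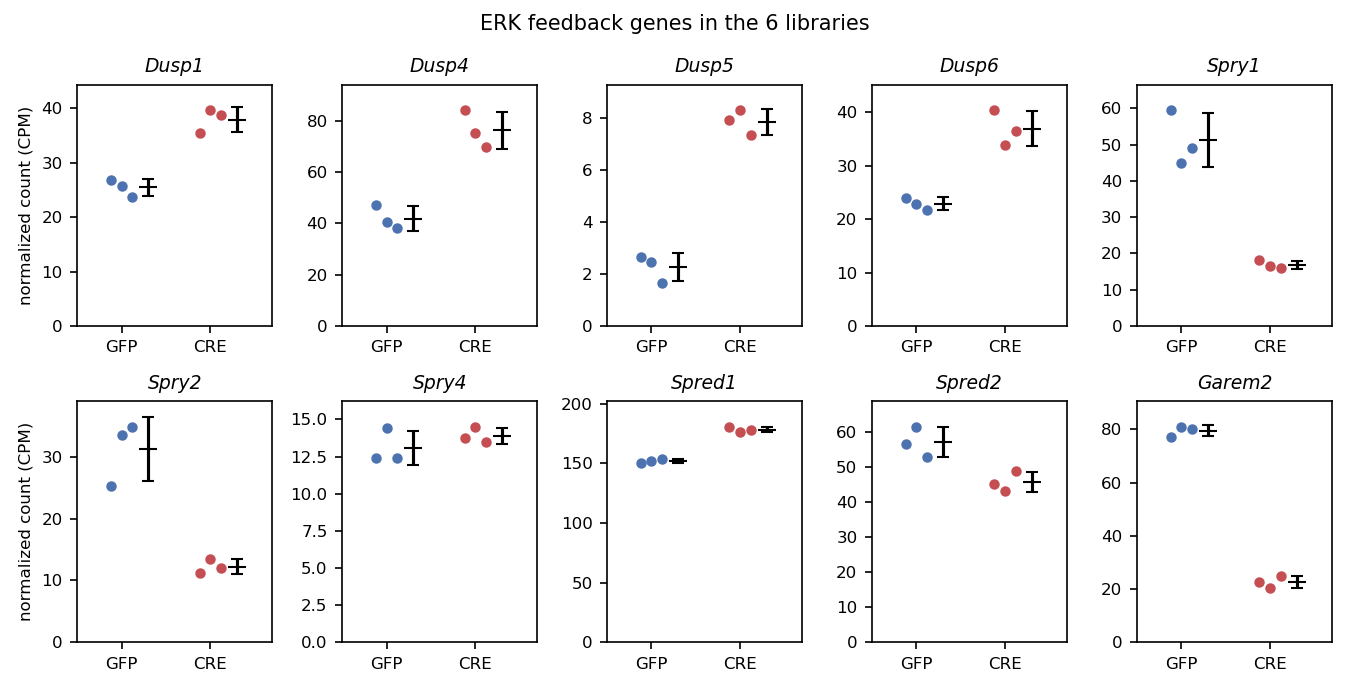
Normalized counts (CPM, counts scaled to the TMM-adjusted library size) of the 10 genes in each library, on linear axes from 0, with GFP libraries in blue and CRE libraries in red; bars give the mean ± SD (n = 3). On this scale the groups overlap for Spry4 alone. Relative to their mean, the GFP replicates of Spry1, Spry2 and Dusp5 are the most widely spread (coefficients of variation 14.5%, 16.6% and 23.6%).

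Dusp1, Dusp4, Dusp5 and Dusp6 encode inducible phosphatases of the MAP kinases. DUSP1 and DUSP4 sit in the nucleus and act on JNK and p38 as well as ERK. DUSP5, also nuclear, and DUSP6, in the cytoplasm, act on ERK with high selectivity.

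Dusp5 (ENSMUSG00000034765) showed the largest difference of the 4 and lies on chromosome 19, plus strand, between 53529109 and 53542431 (GRCm38, GENCODE M21, as for the coordinates that follow). It had 43, 44 and 32 counts in GFP and 148, 150 and 139 counts in CRE libraries. Every CRE count was thus more than 3 times every GFP count. Its normalized count was 2.27 ± 0.54 CPM (SD, n = 3) in GFP and 7.86 ± 0.49 CPM (SD, n = 3) in CRE libraries, a log2 fold change of 1.80 (SE 0.18). Only 129 of the tested genes had a larger positive log2 fold change. The GFP counts were low, and their coefficient of variation of 23.6% was the widest of any member. On the log2(FPKM + 1) scale, which compresses low values, the difference was 1.23.

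Dusp4 (ENSMUSG00000031530, plus strand of chromosome 8, 34807297 to 34819894) had 758, 718 and 733 counts in GFP and 1565, 1356 and 1320 counts in CRE libraries. The CRE counts spread more than the GFP counts, with replicate 1 the highest, and the groups stayed well apart. The level went from 41.9 ± 4.7 to 76.2 ± 7.3 CPM (SD, n = 3 each), a log2 fold change of 0.87 (SE 0.09), so CRE libraries held 182.1% of the GFP level.

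Dusp6 (ENSMUSG00000019960, plus strand of chromosome 10, 99263231 to 99267489) had 387, 407 and 419 counts in GFP and 752, 611 and 693 counts in CRE libraries. Again CRE replicate 1 was the highest library. The normalized count was 22.9 ± 1.1 CPM in GFP and 36.9 ± 3.3 CPM in CRE libraries (SD, n = 3 each), and the log2 fold change was 0.69 (SE 0.08).

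Dusp1 (ENSMUSG00000024190, minus strand of chromosome 17, 26505590 to 26562128) had 433, 457 and 457 counts in GFP and 659, 716 and 735 in CRE libraries. Its groups were also separate, with similar spread. The level was 25.5 ± 1.6 CPM in GFP and 37.9 ± 2.2 CPM in CRE libraries (SD, n = 3 each). The log2 fold change of 0.58 (SE 0.07) was the smallest of the 4 phosphatase genes and, as a fold change of 1.49, fell just short of the 1.5 used in the study.

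The promoters of Dusp5 and Dusp1 are shown because each holds a motif of a factor that carries signals to inducible genes. RefSeq windows (GRCm38.p6) from 250 bases before to 50 bases after a start were at hand for 8 of the 10 genes, all but Dusp4 and Spry4, and 8 motifs were searched on both strands. Capitals mark the CArG boxes of Dusp5 (chr19:53529025-53529108, plus strand) and the cAMP response element TGACGTCA of Dusp1 (chr17:26508520-26508625, minus strand), and each sequence ends before the exon that GENCODE places next downstream. The annotated Dusp1 gene also begins farther upstream, so its sequence lies within the gene's GENCODE bounds.
Dusp5: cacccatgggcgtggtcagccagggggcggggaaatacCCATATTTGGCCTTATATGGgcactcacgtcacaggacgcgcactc
Dusp1: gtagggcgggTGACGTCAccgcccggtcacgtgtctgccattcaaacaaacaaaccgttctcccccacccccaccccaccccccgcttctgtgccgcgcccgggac
The CArG box is the sequence bound by serum response factor, which works with ERK-activated cofactors or with actin-regulated ones. Dusp5 carries 2 of them end to end, beginning 82 and 72 bases before its RefSeq start. Of all 32851 windows, 1.63% hold a CArG box and 6 (0.0183%) hold at least 2. The cAMP response element of Dusp1 begins 143 bases before its start and is found in 1.79% of windows. These matches describe the letters only, and binding was not measured here.

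Of the Sprouty genes, Spry1 and Spry2 differed in the opposite direction to the phosphatase genes and Spry4 did not. Sprouty proteins are recruited to the membrane when growth factor receptors are active and hold back signalling to RAS and RAF. The CPM of Spry4 overlapped between groups.

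Spry1 (ENSMUSG00000037211, plus strand of chromosome 3, 37639947 to 37644598) had 956, 799 and 946 counts in GFP libraries and 336, 297 and 300 in CRE libraries. Its lowest GFP count was more than 2 times its highest CRE count. The level went from 51.2 ± 7.4 to 16.8 ± 1.1 CPM (SD, n = 3 each), so that CRE libraries held 32.8% of the GFP level (log2 fold change -1.61, SE 0.10). Of the tested genes 187 (1.45%) had a larger negative log2 fold change.

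Spry2 (ENSMUSG00000022114, minus strand of chromosome 14, 105891947 to 105896819) had 406, 594 and 670 counts in GFP and 210, 244 and 227 counts in CRE libraries. GFP replicate 1 was the lowest of its group here, whereas for Spry1 it was the highest. The level went from 31.2 ± 5.2 to 12.3 ± 1.1 CPM (SD, n = 3 each). CRE libraries were at 39.3% of GFP, a log2 fold change of -1.35 (SE 0.12). Without GFP replicate 1 the log2 fold change was -1.48.

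Spry4 (ENSMUSG00000024427) had 200, 256 and 239 counts in GFP and 256, 262 and 255 in CRE libraries. GFP replicate 2, at 14.4 CPM, lay within the CRE range of 13.5 to 14.5 CPM. The mean was 13.1 ± 1.2 CPM in GFP and 13.9 ± 0.5 CPM in CRE libraries (SD, n = 3 each), and the log2 fold change of 0.09 (SE 0.09) did not pass the threshold. Scaling by library size alone, which raises all genes by 0.16 on the log2 scale, gave 0.25 and carried Spry4 past it. In deposited FPKM the Spry4 groups did not overlap, at 2.47 to 2.87 in GFP and 2.995 to 3.241 in CRE libraries.

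The window upstream of Spry1 is given because it was the Sprouty promoter with a motif before its start (chr3:37639729-37639946, plus strand, RefSeq, GRCm38.p6). Capitals mark a match to GGAATG, the short sequence bound by the TEAD partners of YAP and TAZ, 208 bases before the start.
Spry1: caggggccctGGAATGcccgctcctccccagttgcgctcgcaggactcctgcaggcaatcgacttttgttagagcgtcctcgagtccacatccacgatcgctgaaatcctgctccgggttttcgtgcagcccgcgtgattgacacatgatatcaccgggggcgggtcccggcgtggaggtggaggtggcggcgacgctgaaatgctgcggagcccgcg
This 6-letter motif is common and lies in 14.7% of windows. Spry2 held the ETS motif CCGGAA, found in 14.9% of windows, after its start. No member window held AP-1 (TGANTCA, in 7.81% of windows), EGR (GCGNGGGCG, 5.55%), the SMAD pair (GTCTAGAC, 0.213%) or a TATA box (TATAAA, 13.6%), which says only that these letters are not there. What the 8 windows shared was base composition. Between 56.0% and 72.8% of their 250 upstream bases were G or C, all above the median of 52.4% over all windows, and they held 12 to 31 CpG dinucleotides against a median of 6.

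SPRED proteins are membrane-bound relatives of Sprouty that bring the RAS GTPase-activating protein neurofibromin to RAS and so switch it off. Spred1 (ENSMUSG00000027351, plus strand of chromosome 2, 117121374 to 117182279) was the highest member per length and had 2423, 2702 and 2964 counts in GFP and 3365, 3184 and 3372 counts in CRE libraries. It was also the least variable, with coefficients of variation of 1.1% in GFP and 1.26% in CRE libraries. Its level went from 152.2 ± 1.7 to 178.3 ± 2.2 CPM (SD, n = 3 each), a log2 fold change of 0.23 (SE 0.04), which was 0.39 with library size alone and 0.38 on log2(FPKM + 1) values. A larger positive value was seen for 26.5% of tested genes.

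Spred2 (ENSMUSG00000045671, plus strand of chromosome 11, 19924375 to 20024026) had 914, 1093 and 1021 counts in GFP and 845, 781 and 927 in CRE libraries. The raw counts overlapped, but after scaling the lowest GFP value, 53.0 CPM, lay above the highest CRE value, 48.9 CPM. Its log2 fold change was -0.32 (SE 0.07), with means of 57.1 ± 4.3 and 45.8 ± 2.9 CPM (SD, n = 3 each). Like that of Spry4, its call depended on scale. The log2 fold change was -0.16 with library size alone and -0.12 on log2(FPKM + 1) values, neither past the threshold, and in deposited FPKM its groups overlapped, at 13.4 to 15.4 in GFP and 12.2 to 13.9 in CRE libraries.

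Garem2 encodes a GRB2-associated regulator of MAP kinase signalling, an adaptor and not a phosphatase or a Sprouty protein. The gene (ENSMUSG00000044576, plus strand of chromosome 5, 30105161 to 30118378) had 1241, 1436 and 1546 counts in GFP and 419, 368 and 472 counts in CRE libraries. These groups were the farthest apart among the lower members. CRE libraries held 28.4% of the GFP level of 79.4 ± 2.0 CPM, at 22.6 ± 2.3 CPM (SD, n = 3 each), a log2 fold change of -1.81 (SE 0.07). Its paralog Garem1, not a member, differed in the other direction, with 89, 112 and 116 counts in GFP and 176, 215 and 168 in CRE libraries. Garem1 rose by a log2 fold change of 0.75 (SE 0.14, adjusted p = 0.00106).

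Some reads of 4 members could belong to a neighbour, because it is not stated whether counting used the strand. Genes annotated on the opposite strand cover 24.4% of the exonic bases of Spry1 (Gm42922), 22.1% of those of Dusp5 (AC137853.2), 6.29% and 1.94% of those of Garem2 (3110082J24Rik and Hadha) and 0.332% of those of Dusp1 (Ergic1). Gm42922 and AC137853.2 are not among the genes analysed here, so their part in the Spry1 and Dusp5 counts was not tested.

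**Figure D2:**
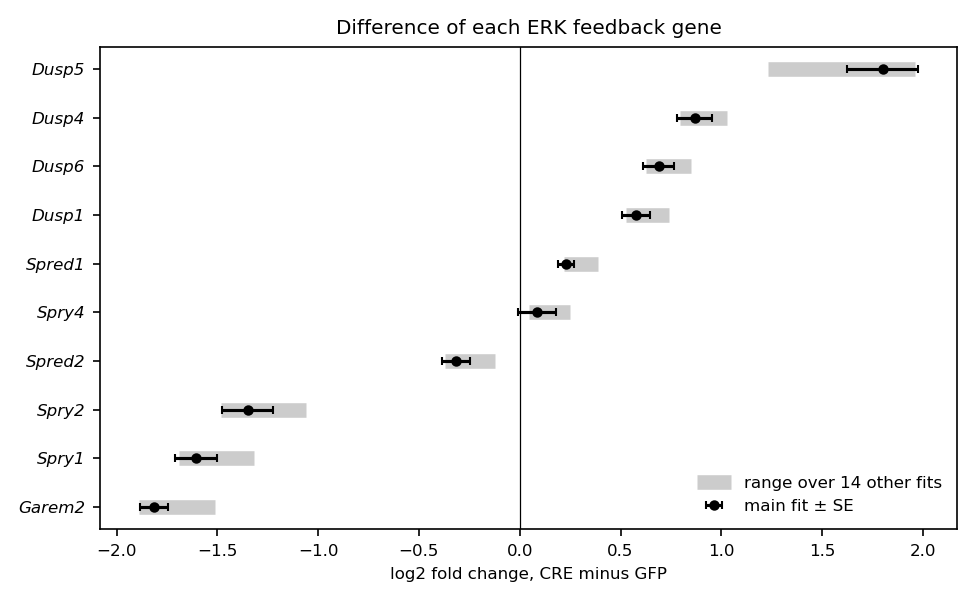
Log2 fold change of each member, CRE minus GFP, with points and bars for the edgeR estimate ± SE and gray bands for the range over 14 other fits, among them other scalings, tests and each library left out. From Garem2 at -1.81 to Dusp5 at 1.80, no band crosses 0, and the band of Dusp5 reaches down to 1.23.

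Transcript levels of different genes can be set side by side only per length, so the FPKM values of the table (fragments scaled to transcript length and library depth) were used. In GFP libraries the order was Spred1 (24.3 ± 0.4 FPKM), Spry1 (19.6 ± 2.8), Garem2 (19.4 ± 0.5), Dusp4 (14.5 ± 1.6), Spred2 (14.3 ± 1.0), Spry2 (14.1 ± 2.4), Dusp1 (12.8 ± 0.9), Dusp6 (7.75 ± 0.38), Spry4 (2.60 ± 0.23) and Dusp5 (0.87 ± 0.20 FPKM, SD, n = 3). Spry1 and Garem2 overlapped in this order, as did each neighbouring pair from Dusp4 to Dusp1. The 2 ends, Spred1 at the top and Spry4 and Dusp5 at the bottom, were apart from their neighbours.

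In CRE libraries the order became Spred1 (32.0 ± 0.3 FPKM), Dusp4 (29.4 ± 2.7), Dusp1 (21.7 ± 1.2), Dusp6 (13.98 ± 1.18), Spred2 (13.1 ± 0.9), Spry1 (7.19 ± 0.49), Spry2 (6.21 ± 0.61), Garem2 (6.18 ± 0.61), Dusp5 (3.36 ± 0.22) and Spry4 (3.09 ± 0.13 FPKM, SD, n = 3). The neighbours that overlapped were Spred1 with Dusp4, Dusp6 with Spred2, the run from Spry1 to Garem2, and Dusp5 with Spry4. Dusp4, Dusp1 and Dusp6 each moved up the order, from places 4, 7 and 8 to 2, 3 and 4, and Spry1 and Garem2 moved down, from 2 and 3 to 6 and 8. Dusp5, despite its large difference, was still one of the least abundant members. Ordered by counts per kilobase of the longest GENCODE transcript, 6 of the 10 members held the same place in GFP and all 10 in CRE libraries.

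Summed per length, the 4 phosphatase transcripts came to 38.9, 35.6 and 33.0 FPKM in GFP and 71.2, 68.2 and 66.0 FPKM in CRE libraries. The 3 Sprouty transcripts came to 36.5, 35.3 and 37.1 FPKM in GFP and 16.4, 17.2 and 15.8 FPKM in CRE libraries. Neither sum overlapped between groups. The ratio of the phosphatase sum to the Sprouty sum, which library scaling does not touch, was 1.07, 1.01 and 0.89 in GFP libraries and 4.33, 3.96 and 4.18 in CRE libraries. The mean ratio was 0.99 ± 0.09 in GFP and 4.16 ± 0.19 in CRE libraries (SD, n = 3 each). Because the members were chosen with their differences in these libraries known, nothing is read from the sums or the ratio. The phosphatase sum also leaves out the other MAP kinase phosphatase genes, whose own summed CPM overlapped between groups.

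The sum of all 10 members hardly moved, and its direction depended on the scale. It was 130.2 ± 2.6 FPKM in GFP and 136.2 ± 2.6 FPKM in CRE libraries (SD, n = 3 each), 104.6% of the GFP sum, whereas on the CPM scale it was 94.1%. The 2 SPRED transcripts summed to 38.7 ± 1.3 FPKM in GFP and 45.04 ± 0.90 FPKM in CRE libraries, 116.5% of the GFP sum. In CPM their rise was smaller, from 209.4 ± 3.8 to 224.1 ± 4.1 (SD, n = 3 each). The phosphatase sum in CRE libraries was 191.1% of the GFP sum in FPKM and 171.8% in CPM. For the Sprouty sum these values were 45.43% and 44.98%.

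The phosphatase sum was made up alike in both groups apart from Dusp1 and Dusp5. Dusp4 was 40.3% ± 1.3 of it in GFP and 42.9% ± 2.3 in CRE libraries, Dusp1 35.7% ± 0.8 and 31.8% ± 2.8, and Dusp6 21.7% ± 0.7 and 20.4% ± 1.4 (SD, n = 3). Dusp5 went from 2.40% ± 0.41 to 4.91% ± 0.27 of the sum. The shares of Dusp4 and Dusp6 overlapped between groups, and those of Dusp1 and Dusp5 did not.

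In the Sprouty sum the share of Spry4 differed most. Spry4 held 7.18% ± 0.82 of it in GFP libraries and 18.8% ± 0.2 in CRE libraries (SD, n = 3). Spry1 made up 62.0%, 48.9% and 50.8% of the sum in GFP and 46.9%, 41.3% and 42.6% in CRE libraries. Spry2 held 31.2%, 43.0% and 42.6% in GFP and 34.6%, 39.9% and 38.4% in CRE libraries. GFP replicate 1 thus had more Spry1 and less Spry2 than the other 2 GFP libraries, while its Sprouty sum lay between theirs. The Spry1 and Spry4 shares did not overlap between groups, and the Spry2 shares did.

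**Figure D3:**
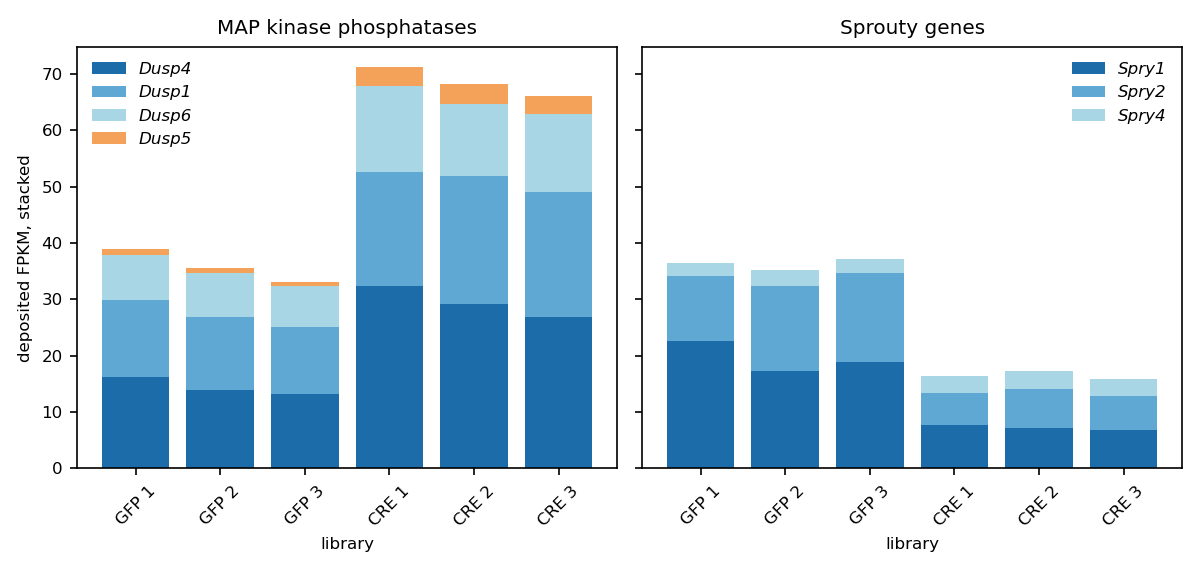
Deposited FPKM of the 4 phosphatase genes (left) and 3 Sprouty genes (right), stacked for each library on a common linear axis from 0. The phosphatase stack stands at 33.0 to 38.9 FPKM in GFP and 66.0 to 71.2 FPKM in CRE libraries, and the Sprouty stack at 35.3 to 37.1 FPKM in GFP and 15.8 to 17.2 FPKM in CRE libraries.

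The rest of the pathway was described from 8 lists holding 137 other genes, of which 124 could be tested. At an adjusted p under 0.05 (edgeR quasi-likelihood test, Benjamini-Hochberg over all tested genes), 47 rose, 23 fell and 54 did not pass. This is 56.5% of the 124, beside 51.2% of all tested genes. The counts of each list below stand beside the same background, 25.5% of all tested genes higher and 25.7% lower. The split depended on scaling, with 73 higher and 17 lower by library size alone and 64 higher and 16 lower on log2(FPKM + 1) values. Over all tested genes the share of calls that were higher went from 49.8% to 72.6% and 72.2%. The members' own 9 of 10 cannot be read against it, since they were picked knowing their values.

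Among the 5 other MAP kinase phosphatase genes that were tested, only Dusp8 passed. DUSP8 acts mainly on JNK and p38, and its transcript rose from 6.66 ± 0.56 to 11.1 ± 1.5 CPM (SD, n = 3 each), a log2 fold change of 0.74 (SE 0.13, adjusted p = 8.03e-04). Dusp7, whose product is cytoplasmic and ERK-selective like DUSP6, had a log2 fold change of -0.24 (SE 0.13, adjusted p = 0.140), Dusp10 one of 0.20 (SE 0.12, adjusted p = 0.172), Dusp16 one of 0.06 (SE 0.06, adjusted p = 0.434) and Dusp9 one of 0.27 (SE 0.37, adjusted p = 0.572). Dusp2 had only 7 to 15 counts per library and was not tested.

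Of the 10 tested atypical DUSP genes, which lack the MAP kinase docking domain, 2 rose and 2 fell. Dusp14 rose from 2.27 ± 0.61 to 7.75 ± 0.49 CPM (SD, n = 3 each), a log2 fold change of 1.77 (SE 0.18, adjusted p = 3.00e-05), close to the Dusp5 difference in size. Dusp28 rose by 0.89 on the log2 scale (SE 0.18, adjusted p = 0.00251). Dusp12 fell by 0.92 (SE 0.12, adjusted p = 1.11e-04) and Dusp18 by 0.82 on the log2 scale (SE 0.10, adjusted p = 6.33e-05).

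The other brakes on RAS and receptors were divided, with 4 higher, 6 lower and 9 not past the threshold of 19 tested. Rasa4, a calcium-responsive RAS GTPase-activating protein, rose from 8.71 ± 0.77 to 19.8 ± 3.6 CPM (SD, n = 3 each), a log2 fold change of 1.19 (SE 0.14, adjusted p = 5.93e-05), and Sh2b3, which restrains cytokine receptors, rose by 0.50 (SE 0.07, adjusted p = 1.90e-04). Erf, an ETS repressor that ERK removes from the nucleus, fell from 45.2 ± 1.4 to 27.5 ± 0.5 CPM, a log2 fold change of -0.72 (SE 0.05, adjusted p = 4.43e-06), though on log2(FPKM + 1) values it was -0.26. The RAS GTPase-activating gene Rasal2 fell by 0.50 on the log2 scale (SE 0.06, adjusted p = 5.98e-05). Spred3, the third SPRED gene, had a log2 fold change of -0.33 (SE 0.11, adjusted p = 0.0269) that did not pass with library size alone or on log2(FPKM + 1) values (adjusted p = 0.218 and 0.281), nor without GFP replicate 2 (0.0656) or CRE replicate 1 (0.0792). Neurofibromin, the partner of the SPRED proteins, had a log2 fold change of -0.06 for its gene Nf1 (SE 0.05, adjusted p = 0.309).

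Adaptors and RAS activators had 9 higher, 5 lower and 7 not past the threshold of 21 tested. The largest differences were falls. Rasgrf2, an exchange factor that loads RAS with GTP, fell from 4.02 ± 0.22 to 0.76 ± 0.31 CPM, a log2 fold change of -2.40 (SE 0.26, adjusted p = 4.05e-05), which the log2(FPKM + 1) scale compressed to -0.43. Rasgrp3, another exchange factor, fell from 20.7 ± 0.4 to 8.68 ± 1.07 CPM (SD, n = 3 each), a log2 fold change of -1.25 (SE 0.10, adjusted p = 5.24e-06), or -0.71 on log2(FPKM + 1) values. Beside Garem1, the adaptor gene Crk was the highest, by 0.42 on the log2 scale (SE 0.04, adjusted p = 1.94e-05).

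In the RAF, MEK and ERK cascade 3 genes rose, 3 fell and 9 did not pass of 15 tested, and the median log2 fold change was -0.0047. Mapk3, which encodes ERK1, fell from 84.3 ± 5.9 to 63.2 ± 2.2 CPM, a log2 fold change of -0.41 (SE 0.06, adjusted p = 2.19e-04), or -0.24 on log2(FPKM + 1) values. The ERK-activated kinase genes Mknk2 and Mknk1 rose by 0.72 (SE 0.06, adjusted p = 5.91e-06) and 0.55 on the log2 scale (SE 0.06, adjusted p = 6.83e-05), and the scaffold gene Lamtor3 fell by 0.39 (SE 0.07, adjusted p = 0.00101), or by 0.23 with library size alone. In the JNK and p38 arms, on which DUSP1, DUSP4 and DUSP8 also act, 4 of 13 tested genes rose and none fell. That is 30.8% called, beside 51.2% of all tested genes called and 25.5% called higher. Map2k3 rose by 0.60 (SE 0.05, adjusted p = 1.08e-05) and the p38α gene Mapk14 by 0.45 on the log2 scale (SE 0.05, adjusted p = 4.33e-05).

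**Figure D4:**
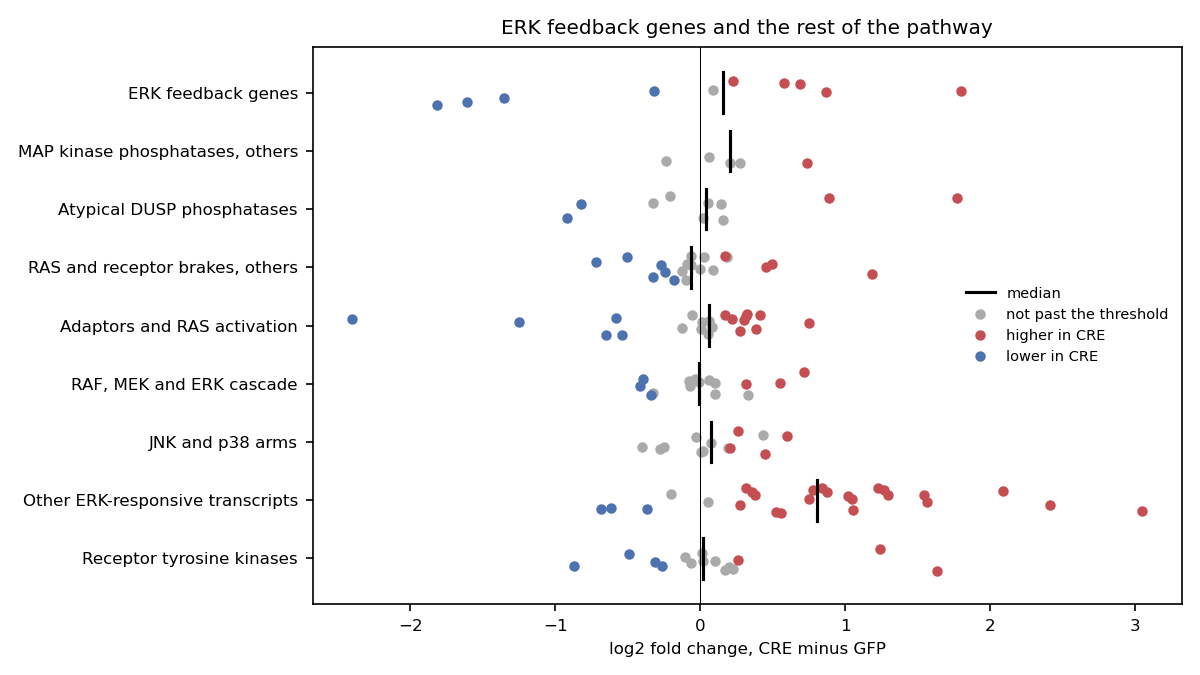
Log2 fold change, CRE minus GFP, of each tested gene of the members (top row) and of the 8 other lists, colored by whether it passed an adjusted p of 0.05 higher or lower in CRE, with the list median as a black bar. The medians of 7 of the 8 lists lie between -0.07 and 0.20, and that of the other ERK-responsive transcripts lies at 0.81.

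The list of other transcripts known to respond to ERK, mainly immediate early genes and growth factors, had 21 genes higher, 3 lower and 2 not past the threshold of 26 tested. That is 92.3% called, beside 51.2% of all tested genes, and the median log2 fold change was 0.81 beside 0.01. The list was drawn up with the rise of some of its genes in these libraries known, so its direction is not independent of them. In 23 of the 26 the groups did not overlap, beside 59.6% of all tested genes.

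Egr1, an immediate early zinc finger factor, had 298, 361 and 380 counts in GFP and 2048, 1914 and 1845 counts in CRE libraries. The lowest CRE count was several times the highest GFP count. It rose from 19.5 ± 0.9 to 104.4 ± 6.4 CPM (SD, n = 3 each), a log2 fold change of 2.42 (SE 0.06, adjusted p = 1.33e-08). Fosb, a subunit of AP-1, had 7, 21 and 15 counts in GFP and 148, 138 and 89 counts in CRE libraries, a log2 fold change of 3.05 (SE 0.31, adjusted p = 2.80e-05) that was 1.44 on log2(FPKM + 1) values. Its low GFP counts make the size of that fold uncertain, but no GFP library reached the lowest CRE count.

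Phlda1 rose by 1.02 on the log2 scale (SE 0.09, adjusted p = 1.14e-05). Among the ETS factor genes that follow FGF and ERK signalling, Etv5 rose by 0.32 (SE 0.05, adjusted p = 6.72e-04; 0.48 with library size alone) and Etv4 by 0.36 (SE 0.12, adjusted p = 0.0311), the latter with overlapping groups and lost when GFP replicate 1 or 3 or CRE replicate 1 or 2 was left out (adjusted p 0.0788 to 0.105). The third of them, Etv1, fell by 0.61 (SE 0.07, adjusted p = 8.55e-05), or by 0.38 on log2(FPKM + 1) values. Fosl2, an AP-1 gene related to Fosb, fell from 242.9 ± 9.0 to 151.0 ± 4.6 CPM (SD, n = 3 each), a log2 fold change of -0.69 (SE 0.05, adjusted p = 2.06e-06). Spry1, Spry2, Fosl2, Etv1 and Epha4 stood lower in the same libraries in which most of the listed ERK-responsive transcripts stood higher. Members and list were picked with results of these libraries known, so nothing is read from this contrast. Whether these differences hold at the level of protein or ERK phosphorylation was not measured here.

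**Figure D5:**
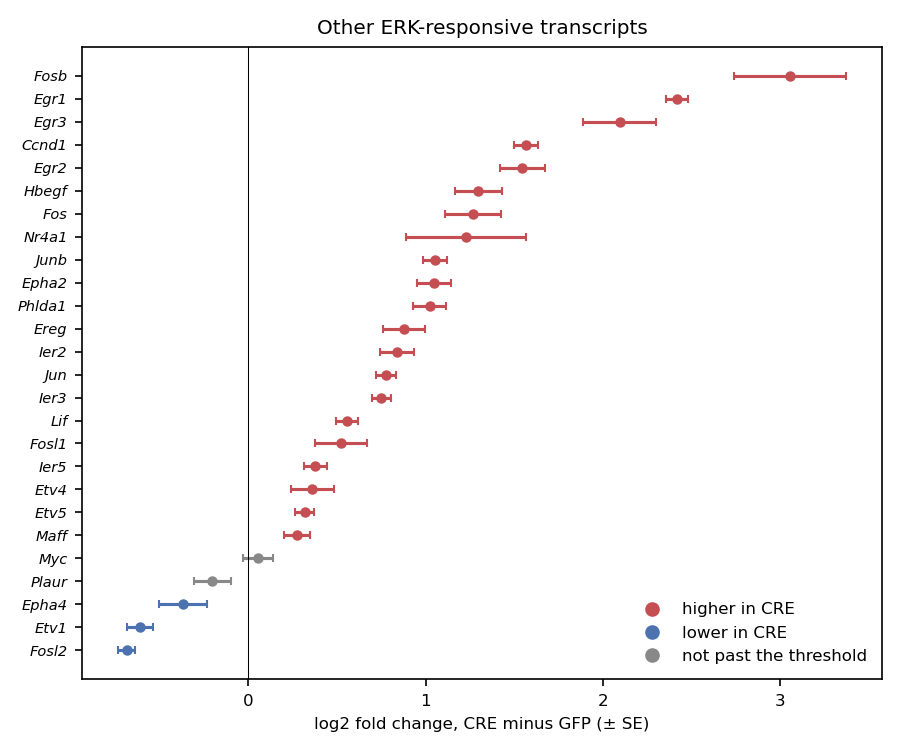
Log2 fold change (point) ± SE (bar), CRE minus GFP, of the 26 tested transcripts in the list of other ERK-responsive genes, colored by call. The 21 higher genes run from Maff at 0.27 to Fosb at 3.05, and the 3 lower ones are Epha4, Etv1 and Fosl2.

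At the top of the cascade, 3 receptor tyrosine kinase genes rose, 4 fell and 8 did not pass of 15 tested. Fgfr3 rose from 0.89 ± 0.23 to 2.77 ± 0.21 CPM (SD, n = 3 each), a log2 fold change of 1.63 (SE 0.25, adjusted p = 3.54e-04) that was 0.57 on log2(FPKM + 1) values, while Fgfr1, another FGF receptor gene, at 453.0 ± 25.8 CPM in GFP libraries, had a log2 fold change of 0.02 (SE 0.05, adjusted p = 0.792). Met, the hepatocyte growth factor receptor, had a log2 fold change of 0.26 (SE 0.10, adjusted p = 0.0434; 0.42 with library size alone) and did not pass with DESeq2 (0.0696), with limma-voom (0.0526) or without any one of GFP replicates 1, 2 and 3 and CRE replicate 2 (0.0662 to 0.156). Pdgfra, a receptor and fibroblast marker, fell from 407.5 ± 77.3 to 222.8 ± 18.9 CPM, a log2 fold change of -0.87 (SE 0.12, adjusted p = 1.61e-04), and the collagen receptor Ddr2 fell by 0.49 (SE 0.04, adjusted p = 1.14e-05).

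Markers of cell types were read in the same libraries, beside 25.5% of all tested genes called higher and 25.7% called lower. Of 10 fibroblast markers 9 fell, all but Thy1, and their sum went from between 54410 and 56130 CPM in GFP to between 28940 and 31260 CPM in CRE libraries. Of 12 endothelial markers 10 fell, Eng rose and Kdr did not pass, with sums of 1054 to 1108 and 977.7 to 1029 CPM, and none was at 0. Without Eng the other 11 summed to 422.9 to 467.9 CPM in GFP and 201.2 to 235.1 CPM in CRE libraries. Of 10 smooth muscle and pericyte markers 5 fell and 1, Cspg4, rose (174.6 to 194.3 CPM in GFP, 143.0 to 163.5 CPM in CRE libraries), and of 6 tested macrophage and leukocyte markers 3 fell (59.1 to 67.0 and 35.01 to 38.3 CPM for all 12). Cardiomyocyte markers summed to at most 1.61 CPM, with Myh6 and Myl7 at 0 in all 6 libraries. The part of these shifts in the differences of the feedback genes was not tested.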

How the data were processed

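Counts per gene and library were deposited by the authors. Per the study's methods, reads were trimmed (Trimmomatic), aligned to GRCm38 (HISAT2) and counted (HTSeq-count). Versions and strand setting are not given in the sources used here, and the labels and methods name different library kits. The FPKM values deposited by the authors came from Cufflinks. Their log2 fold change, p-value and false discovery rate columns, also deposited by the authors, hold their own comparison and were not used. Groups came from the sample titles.

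The counts were fitted with edgeR 4.0.16 in R 4.3.3, on genes passing filterByExpr (minimum count 10, total 15) and with TMM scaling (factors 0.944 to 1.06). The quasi-likelihood test of CRE against GFP was two-sided, with Benjamini-Hochberg adjustment over 12862 genes. No 2 replicates looked like one library deposited again (chi-square over its degrees of freedom, 4.05 to 12.1). On simulated data for CRE against GFP (12862 genes, 5 sets), on which the test was checked, it recovered 76% of 200 genes changed by 1.5, and 5.09% of its calls were unchanged genes. Far fewer genes were changed in those sets than the 51.2% called in the data. False calls and scaling with so many changes were therefore not tested.

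The members and lists were chosen with earlier results of these data known. Named are all members, Tet3, in each list the 2 highest and 2 lowest log2 fold changes past the threshold among genes averaging 1 CPM or more, and Erf, Mapk3, Garem1, Spry3, Spred3, Egr1, Etv4, Etv5 and Phlda1, of which Spry3 was not analysed here. One further gene of this rule is not reported here. Dusp2, Dusp7, Dusp9, Dusp10, Dusp16, Nf1, Fgfr1, Epha4 and Maff were named after their values were seen. Alternatives were RLE size factors, library size alone, other filters, DESeq2 1.42.0, limma-voom (limma 3.58.1), log2(FPKM + 1) values in limma, a replicate block, omission of each library, and the study's threshold. Promoters came from RefSeq (GRCm38.p6) and coordinates from GENCODE M21. Figures were drawn with matplotlib 3.10.9.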

Additional observations from a re-analysis of the deposited data

How the results depend on the processing

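Directions of the members held under all 14 other fits. The members past the threshold were 5 higher and 4 lower under each, except 6 higher and 3 lower with library size alone, where Spry4 was gained and Spred2 lost, and 3 lower on log2(FPKM + 1) values, where Spred2 was lost. Leaving out one library at a time gave 5 higher and 4 lower each time. Tet3 stayed between -0.78 and -0.62 (log2 fold change) with one library left out and between -0.72 and -0.55 otherwise.

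Of the other pathway genes, 47 were higher and 23 lower. Library size alone gave 73 higher and 17 lower, log2(FPKM + 1) values 64 and 16, and the study's threshold gave 24 and 9. With one library left out the counts were 41 to 48 higher and 21 to 27 lower. Library size alone moved the share of all calls that were higher from 49.8% to 72.6%, and log2(FPKM + 1) values moved it to 72.2%. Library size alone leaves out the TMM factors, 0.944 to 0.947 in GFP and 1.05 to 1.06 in CRE libraries. It raised the log2 fold change of all genes by 0.16. The part of this shift in the result on log2(FPKM + 1) values was not tested.

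Same-numbered GFP and CRE libraries deviated together at r = 0.046, 0.18 and -0.018 across genes, and others at -0.12 to 0.071. The largest r was thus between same-numbered libraries, those of replicate 2. With deviations taken within groups of 3, these values cannot decide whether the replicate numbers in the titles pair the libraries. A fit with the replicate block left 5 members higher and 4 lower, 46 pathway genes higher and 26 lower, and Tet3 at -0.71. With 32 to 44 counts of Dusp5 per GFP library and 7 to 21 of Fosb, depth limits how well the size of those folds is known.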

Other observations

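Windows with the motifs found at Dusp5 and Dusp1 were followed in the other genes, a choice made after the data were seen. Of 155 tested genes other than the members with a CArG box in their window, 30 (19.4%) rose and 55 (35.5%) fell, beside 25.5% and 25.7% of all tested genes, and the median log2 fold change was -0.08. Srf, the gene of serum response factor itself and the other tested gene with 2 such boxes, had a log2 fold change of 0.04 (edgeR adjusted p = 0.768). Of 357 tested genes with the cAMP response element, 126 (35.3%) rose and 67 (18.8%) fell, with a median of 0.08.

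Growth factor and cyclin genes on the ERK-responsive list included further increases. Hbegf, a ligand of the EGF receptor, rose from 34.4 ± 1.9 to 84.4 ± 17.3 CPM, Ereg, another such ligand, from 72.04 ± 14.91 to 132.6 ± 8.2 CPM, and the cyclin gene Ccnd1 from 17.1 ± 1.1 to 50.7 ± 2.3 CPM (SD, n = 3 each). Their edgeR adjusted p were 2.38e-05, 1.61e-04 and 2.40e-07. These genes were named after their values were seen.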
